A study of Mus musculus with 7 samples.

Results

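Complement is a set of blood proteins, most of them secreted by hepatocytes, and the 9 genes described here encode components that liver is known to make: Mbl2, C4b, Cfb, C3, Cfi, Hc, C8a, C8b and C9. Their chromatin accessibility was followed by ATAC-seq, in which Tn5 transposase cuts open chromatin and the cut fragments are sequenced, in liver nuclei of young (3 months) and aged (18 months) C57BL/6N mice, which per the study's methods were male and healthy. There were 3 young and 4 aged samples. The series text says that the aged samples came from 3 animals, with 2 liver lobules of an animal entered as separate samples, and it does not say which. The study's methods instead call the aged samples 4 biological replicates, and the 2 sources cannot be reconciled here. The p-values measure the spread between samples and part of the aged spread may be within 1 animal. A region of the deposited table was taken as a member when it overlapped the body of a named gene or the 10 kb on either side of it (GRCm38, GENCODE M21). This gave 58 of 55680 regions: 13 for C3, 10 for Hc, 6 each for Cfi, C8a and C9, 5 each for Mbl2 and C4b, 4 for Cfb and 3 for C8b.

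Complement is switched on by recognition proteins that bind microbial sugars or antibody, or by the alternative pathway, which ticks over without them. The routes meet at enzymes called convertases, which cut C3 into an opsonin that marks particles for uptake and a small inflammatory peptide, and then cut C5. The cut C5 gathers C6, C7, C8 and C9 into a pore in the target membrane, and soluble and membrane-bound inhibitors keep the cascade off host cells. Many of these genes belong to the acute phase response, in which hepatocytes raise the output of plasma proteins during inflammation.

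Counts within the regions totalled 4474652 to 25461110 per sample, and member regions took 0.115% to 0.172% of them. Levels are given as CPM, counts scaled to a common library size with edgeR's TMM factors. All 6 hepatocyte marker genes had an accessible promoter region, with summed levels of 582.0 to 655.0 CPM in young and 723.0 to 836.0 CPM in aged samples, and Apoa1, a lipoprotein gene, was the 1 marker of any cell type, among 18 with a promoter region, that passed the test. Its increase of 0.53 on the log2 scale (adjusted p = 0.0331) shrank to 0.077 (0.769) when the trend with region strength was removed by offsets. Promoter regions were present for 1 of 6 Kupffer cell and macrophage markers (Clec4f, 1 of the defining genes of Kupffer cells), 0 of 6 lymphocyte markers, 4 of 6 sinusoidal endothelial, 4 of 6 stellate cell and 3 of 6 cholangiocyte markers. Summed levels were 2.22 to 2.65 CPM in young and 0.588 to 2.8 CPM in aged samples for Clec4f, and for endothelium 63.3 to 72.3 CPM and 52.5 to 87.8 CPM. For stellate cells they were 27.7 to 30.9 CPM and 17.1 to 25.1 CPM, and for cholangiocytes 43.8 to 51.9 CPM and 39.4 to 56.9 CPM. The hepatocyte and stellate cell sums did not overlap between the age groups, and how often sums of other genes do so was not tested. With the same offsets the median change of the hepatocyte promoters, on the log2 scale, went from 0.279 to -0.0048, with 3 of 6 above 0. That of the stellate cell promoters went from -0.294 to -0.029, with 2 of 4 above 0. The part that cell composition had in any result below was not tested. In bulk nuclei, fewer cells of a type and less accessible chromatin per cell cannot be told apart.

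Accessibility with age was compared for every region with edgeR's quasi-likelihood test, with p-values adjusted over all 55680 regions. Of the 58 complement regions 2 rose and 2 fell: the promoter of C3 and a region just upstream of it gained accessibility, and a region beyond the end of Mbl2 and a region 8399 bp upstream of Cfb lost it. Over all regions, 2.44% rose and 3.3% fell, so the complement share of 6.9% was close to the background of 5.74%. At an unadjusted p under 0.05 the count was 14 of 58, or 24.1%, against 24.6% of all regions. The median log2 fold change (aged over young) of the complement regions was 0.04, against -0.04 over all regions, with 30 above and 28 below 0. Every aged sample lay above every young sample in 5 of the 58 regions (10.2% of all regions did so) and below in 6 (11.6% of all regions). Not all of these regions belong to complement genes alone: 24 of the 58 were also inside or within 10 kb of another protein-coding gene. Promoters of other genes made up 6 of the 58, of which 1 changed upwards and 5 downwards (median -0.41). These 6 held 3 of the regions with every aged sample lower and 0 of those with every aged sample higher. The complement regions were stronger than most, with a median of 14.3 CPM per kb against 10.8, and longer, with a median of 1404 bp against 869 bp.

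The number called depended on single samples, in the complement regions as in the series as a whole. Regions that rose numbered 0 without young replicate 1, young replicate 2, aged replicate 1 or aged replicate 3, and 5 without young replicate 3. Regions that fell numbered 0 without young replicate 1, 1 without young replicate 2, aged replicate 1 or aged replicate 3, and 5 without aged replicate 4. Calls over all 55680 regions moved too, from 3198 to 188 without young replicate 1, 446 without young replicate 2, 402 without aged replicate 1 and 651 without aged replicate 3, against 2651 without young replicate 3 and 4230 without aged replicate 4.

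**Figure D1:**
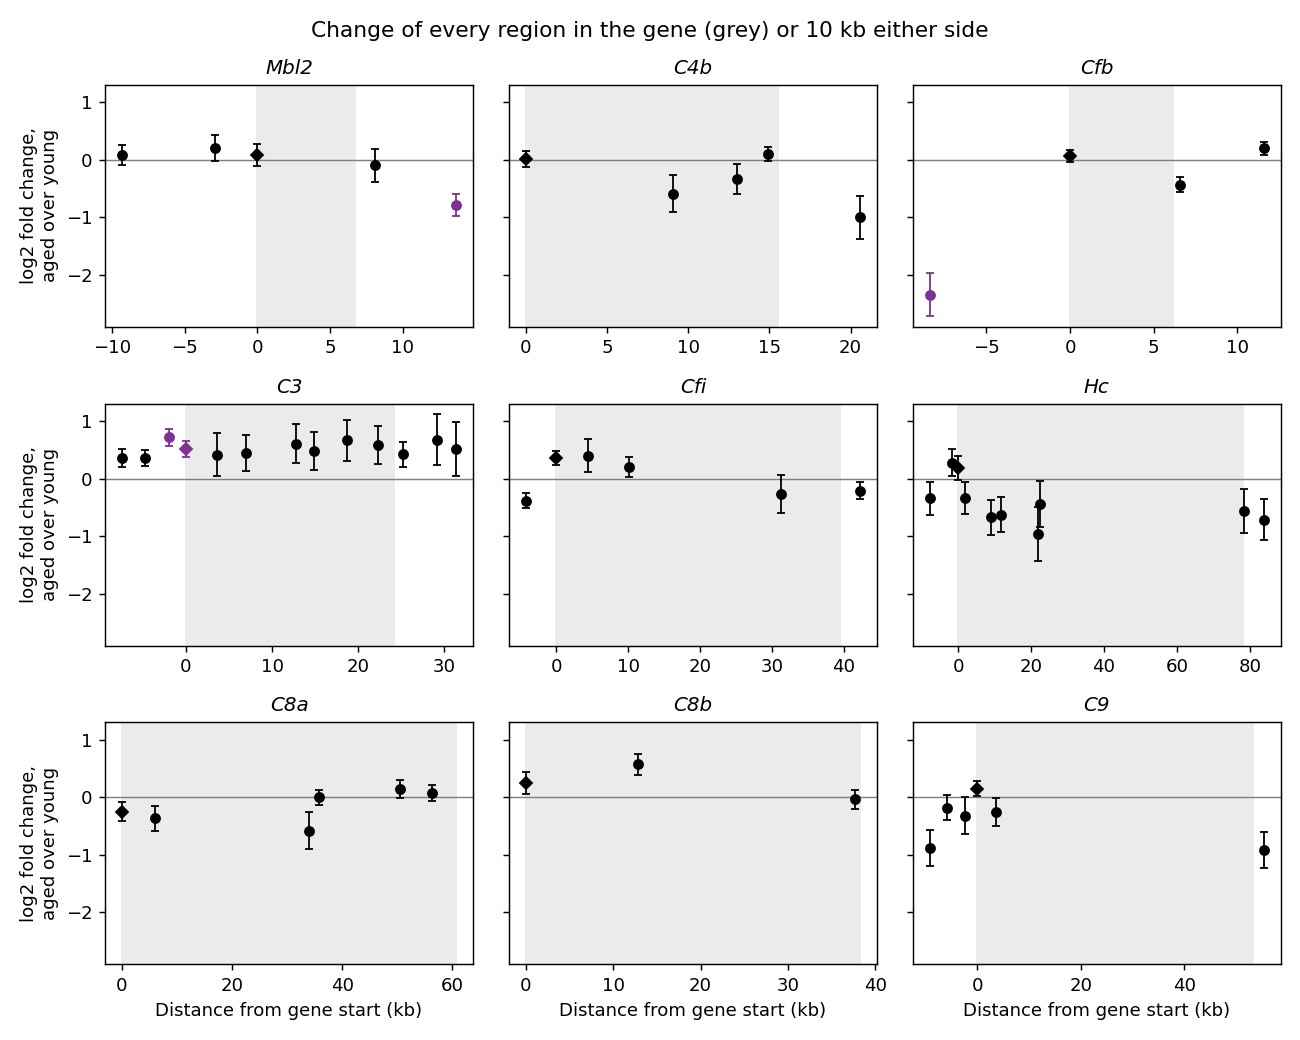
Log2 fold change (aged over young, y axis) of each of the 58 regions against the distance of its nearest edge from the gene's annotated start in kb (x axis), 1 panel per gene; grey marks the gene body, diamonds the promoter region, bars the SE, and purple the 4 regions with an adjusted p under 0.05. All 13 C3 regions lie above 0 (0.36 to 0.72), whereas 8 of 10 Hc regions and 5 of 6 C9 regions lie below it.

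The direction of change followed the strength of a region in this series as a whole. When all regions were ranked by mean level, the weakest decile had a median log2 fold change of -0.42, and the strongest one of 0.28. The complement regions had a negative median in each of the 6 weaker deciles (-0.97 to -0.27) and a positive one in each of the 4 stronger deciles (0.14 to 0.34). The 9 complement promoters lay in deciles 9 and 10, where the median over all regions was 0.16 and 0.28. When this trend was removed with offsets fitted to mean abundance, 0 complement regions rose and 2 fell. Under those offsets 687 of all regions passed the test, against 3198 without them. The split also depended on scaling: of all called regions 42.5% rose with TMM, 63.4% with GC offsets and 15.6% with total counts, and the complement regions split into 2 up and 2 down, 4 and 2, and 1 and 4. With another test as well as another scaling (DESeq2) 58.8% of all called regions rose, and the complement regions split into 3 and 2. With limma voom, another test on the TMM factors, 48.0% rose and the complement regions split into 4 and 3. Total counts moved the median of all regions from -0.04 to -0.15.

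**Figure D2:**
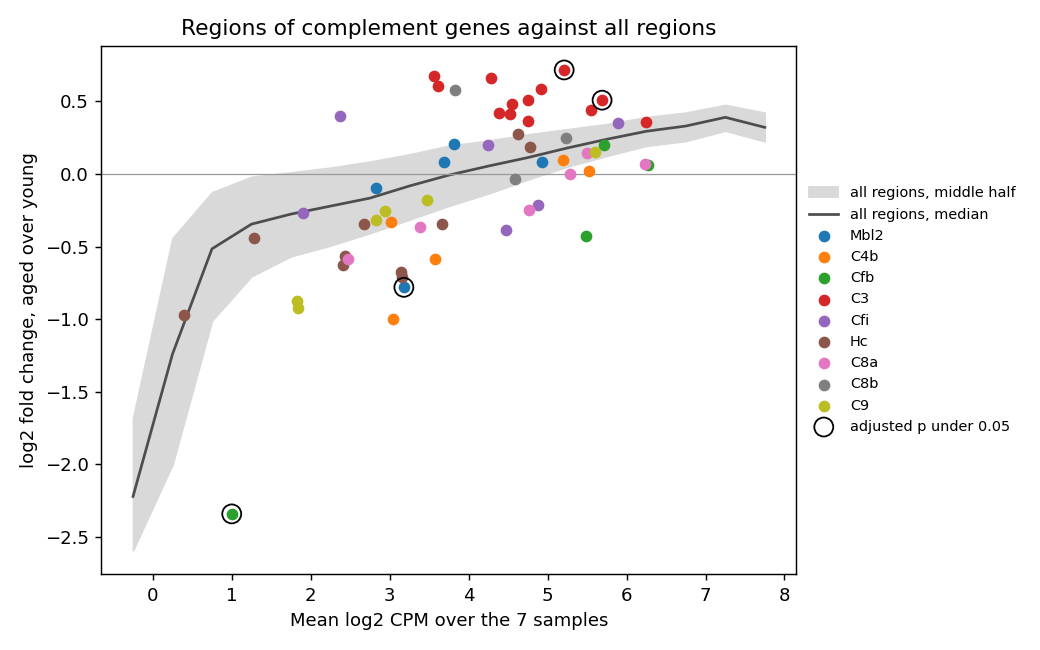
Log2 fold change (aged over young, y axis) against mean log2 CPM over the 7 samples (x axis) for the 58 regions, coloured by gene, over the median (line) and middle 50% (grey band) of all regions in bins of mean log2 CPM; black rings mark an adjusted p under 0.05. The line climbs from left to right; the red C3 points lie above it, and the Mbl2 and Cfb regions that fell lie below the band.

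The promoter region of a gene was the strongest region within 200 bp of an annotated start. In C3 the promoter rose, and in the other 8 genes the change did not pass the test. Weaker regions at later annotated C3 starts, 3579 and 6970 bp from the gene start, did not pass either (0.41, adjusted p = 0.534, and 0.44, 0.42, edgeR). Across protein-coding genes with a promoter region, 5.02% rose and 1.49% fell, and the median log2 fold change of their 11724 promoter regions was 0.12, with 65.6% above 0. The complement promoters had a median of 0.15, and 8 of 9 lay above 0. Among the young samples, replicate 3 had the highest level at 9 of 9 complement promoters and replicate 2 the lowest at 7 of 9. Over all gene promoters the same samples were the highest at 33.2% and the lowest at 27.4%. Aged replicate 4 was the highest aged sample at 4 of the 9 and aged replicate 2 the lowest at 5, against 36.4% and 46.0% of all gene promoters. At 2 of the 9, C3 and Cfi, every aged sample was above every young one, as at 24.0% of all protein-coding genes with a promoter region.

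**Figure D3:**
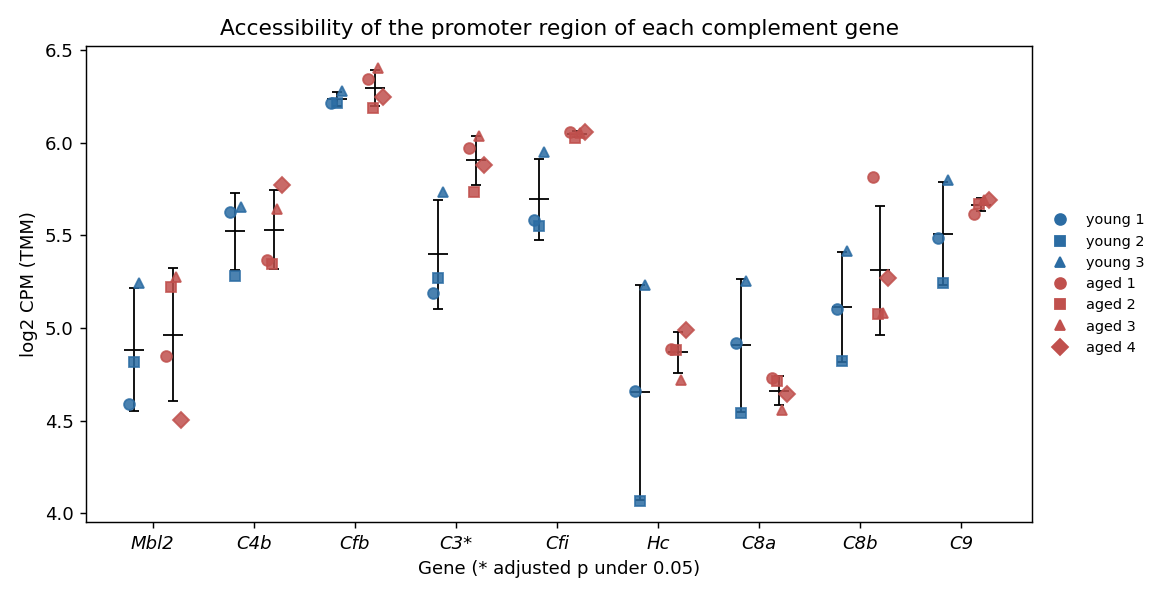
Log2 CPM (y axis) of the promoter region of each gene (x axis) in 3 young (blue) and 4 aged (red) samples; horizontal ticks and bars are the group mean and SD of the log2 values. Only at C3 and Cfi do all aged points lie above all young points, and young replicate 3 (blue triangle) is the highest young point at all 9 genes.

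Per kb of region, the C3 promoter was the most accessible of the 9, at 33.3 CPM per kb ± 7.17 (SD, n = 7 samples), followed by Cfb at 27.0 ± 1.51. The order then ran Cfi (19.0 ± 2.81), C4b (18.9 ± 2.48), C9 (15.9 ± 1.89), C8b (14.2 ± 3.41), Mbl2 (11.5 ± 2.52), Hc (9.84 ± 2.25) and C8a (8.62 ± 1.64). Cfb was above Cfi in 7 of 7 samples, and this was the sole step in the order that held in every sample. C3 was above Cfb in 4 of 4 aged samples, at 38.0 ± 3.41 against 27.5 ± 1.87 CPM per kb (SD, n = 4), but in 1 of 3 young ones, at 27.0 ± 5.75 against 26.3 ± 0.713 (SD, n = 3). Cfi was above C4b in 3 of 4 aged samples and in 0 of 3 young ones. Hc was above C8a in 4 of 4 aged samples but in 1 of 3 young ones, with young means of 9.29 and 9.56 CPM per kb. Promoter regions ran from 1577 bp for C3 to 3179 bp for C8a, and a broad region holds more of its weaker flanks.

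The recognition protein Mbl2, mannose-binding lectin, binds microbial sugars and starts the lectin pathway. Its promoter (chr19:30232594-30235280) had 23.9, 28.0 and 37.7 CPM in young replicates 1 to 3 and 28.6, 37.1, 38.5 and 22.5 CPM in aged replicates 1 to 4. The groups overlapped over their whole range, and the log2 fold change was 0.08 (SE 0.19, adjusted p = 0.83, edgeR). The direction was negative under abundance offsets and without scaling for composition.

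A region 13682 bp from the Mbl2 start, beyond the end of the gene and in no annotated gene (chr19:30246624-30247989), fell with age. It had 13.8, 12.5 and 10.2 CPM in the young samples and 7.56, 8.04, 6.3 and 6.49 CPM in the aged ones. All 4 aged samples were below all 3 young samples. The log2 fold change was -0.78 (SE 0.20, adjusted p = 0.0351), and the call held in 13 of 21 alternative fits, all of which had the same sign. It was lost without young replicate 1 (-0.68, adjusted p = 0.147), young replicate 2 (-0.76, 0.117), aged replicate 1 (-0.82, 0.081) and aged replicate 3 (-0.74, 0.0992), and with abundance offsets (-0.68, adjusted p = 0.103). It was also lost when aged replicate 3 was summed with aged replicate 1, 2 or 4 as if from 1 animal (-0.78 to -0.75, adjusted p 0.0542 to 0.0769). The other 3 Mbl2 regions had log2 fold changes of -0.10 to 0.21. The central 300 bases (GRCm38.p6, RefSeq, plus strand, chr19:30247156-30247455) are shown because the region is the Mbl2 element that lost accessibility. The centre of a region need not be its summit, and none of the 6 motifs searched below occurs in it.
Mbl2 downstream region: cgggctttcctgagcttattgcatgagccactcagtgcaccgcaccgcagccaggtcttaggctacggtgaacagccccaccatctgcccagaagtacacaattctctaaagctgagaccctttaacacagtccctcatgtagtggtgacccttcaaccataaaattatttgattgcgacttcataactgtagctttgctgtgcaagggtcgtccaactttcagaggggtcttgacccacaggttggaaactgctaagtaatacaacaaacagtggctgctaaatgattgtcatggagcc

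C4b encodes the C4 protein, whose cut form is a subunit of the classical and lectin pathway convertase. Its promoter (chr17:34742589-34745037) had 49.2, 38.7 and 50.2 CPM in young samples and 41.0, 40.4, 49.7 and 54.5 CPM in aged samples. The groups overlapped throughout, and the log2 fold change of 0.02 (SE 0.14, adjusted p = 0.949) was negative under 9 alternatives, composition and abundance scalings among them. All 5 regions around C4b have a near-identical stretch on the same chromosome, 4 of them at the neighbouring C4a gene and 1 beyond it at the start of Cyp21a1, at 94.5% to 96.6% identity over at least 80% of their length, so reads of the paralogs may be misassigned or lost to the mapping quality filter. The region 20578 bp from the start, at the start of the pseudogene Cyp21a2-ps, had 15.2, 7.48 and 17.4 CPM in young and 4.66, 3.73, 4.9 and 12.2 CPM in aged samples. In 3 of the aged samples it was below all young samples and in aged replicate 4 it was among them, with a log2 fold change of -0.997 (SE 0.37, adjusted p = 0.118). Without aged replicate 4 it was -1.53 and passed the test (adjusted p = 0.0114), as it did with a replicate block, which leaves that sample without a partner (-1.54, 0.00209).

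Cfb encodes factor B, the protease subunit of the alternative pathway convertase. Its promoter (chr17:34860317-34863168), the strongest Cfb region by CPM, had 74.0, 73.9 and 77.4 CPM in young samples and 80.8, 72.6, 84.5 and 75.6 CPM in aged samples. The samples lay within a narrow range in both groups, with a log2 fold change of 0.06 (SE 0.10, adjusted p = 0.755) that was negative under abundance offsets (-0.22) and without scaling for composition (-0.06).

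The largest drop among the complement regions was 8399 bp upstream of the Cfb start (chr17:34870917-34871475), inside an intron of C2, the complement gene next to Cfb, and of the overlapping model Gm20547. It held 75, 95 and 23 counts in young replicates 1 to 3 and 11, 3, 3 and 10 counts in aged replicates 1 to 4, which is 6.94, 3.59 and 3.78 CPM against 0.966, 0.588, 0.7 and 1.27 CPM. All aged samples were below all young samples, with a log2 fold change of -2.34 (SE 0.38, adjusted p = 0.00902). The call held in 19 of 20 alternative fits and was lost without young replicate 1 (-1.97, adjusted p = 0.0537). It was also 1 of the 2 complement regions called with abundance offsets (-1.88, adjusted p = 0.0316). A peak in 2 samples was enough for a region to be kept, so this weak region may have entered through young samples alone. Which samples had a peak there is not known, and the part of this filter in the fall was not tested. The sequence is shown because 98.9% of the region is marked as repeat in the reference, more than in any other complement region. In the central 300 bases (GRCm38.p6, RefSeq, minus strand, chr17:34871046-34871345) 58.9% of neighbouring base pairs read ca or ac, a share that 0.122% of all region centres reach on either strand. Reads from such a repeat are hard to place uniquely, and the part of read placement in the change was not tested.
Region upstream of Cfb: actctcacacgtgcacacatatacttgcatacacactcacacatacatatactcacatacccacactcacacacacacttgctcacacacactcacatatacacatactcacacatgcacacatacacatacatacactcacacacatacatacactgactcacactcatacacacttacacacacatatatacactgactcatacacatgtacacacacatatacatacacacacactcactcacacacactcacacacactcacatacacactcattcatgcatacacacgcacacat

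The Cfb region at 6579 bp, at a start of Nelfe (a subunit of the negative elongation factor that holds RNA polymerase II near promoters), had 52.1, 45.8 and 63.0 CPM in young and 43.5, 42.6, 37.4 and 34.4 CPM in aged samples. The groups did not overlap, but the log2 fold change of -0.43 (SE 0.13) had an adjusted p of 0.0703. It passed the test with abundance offsets (-0.63, adjusted p = 0.0468) and without scaling for composition (-0.55, adjusted p = 0.0336).

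C3, the protein on which all activation routes converge, was the complement gene with the most consistent direction, since all 13 of its regions had a higher fitted level in aged liver. Its promoter (chr17:57226955-57228531) had 36.3, 38.4 and 52.9 CPM in young replicates 1 to 3 and 62.6, 53.0, 65.4 and 58.7 CPM in aged replicates 1 to 4. All aged samples were above all young ones, although aged replicate 2 lay only just above young replicate 3. The log2 fold change was 0.51 (SE 0.14, adjusted p = 0.0489). The call held in 9 of 21 alternative fits, and the change was positive in all 21. It was lost without young replicate 1 (0.41, adjusted p = 0.182), young replicate 2 (0.44, 0.17), aged replicate 1 (0.48, 0.123) and aged replicate 3 (0.46, 0.131), with abundance offsets (0.28, adjusted p = 0.348), with total counts (0.39, 0.106) and with at least 10 counts in every sample (0.47, 0.0776). Summing 2 aged samples as if from 1 animal also lost it for 5 of the 6 pairs (0.47 to 0.53, adjusted p 0.0579 to 0.117), and it held for aged replicates 2 and 4 (0.0355).

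The region 1919 bp upstream of the C3 start (chr17:57230055-57231581), in no annotated gene, had 25.5, 24.7 and 34.4 CPM in young and 46.2, 38.6, 48.3 and 49.5 CPM in aged samples. All aged samples were above all young ones by a wider margin than at the promoter, with a log2 fold change of 0.72 (SE 0.14, adjusted p = 0.0161). The call held in 16 of 21 alternative fits, with values of 0.55 to 0.88. It was lost without young replicate 1 (0.66, adjusted p = 0.0755), young replicate 2 (0.62, 0.078), aged replicate 1 (0.71, 0.0566) and aged replicate 3 (0.69, 0.0577), and with abundance offsets (0.55, adjusted p = 0.0692).

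The letters of these 2 elements are shown because they are the complement regions that gained accessibility. The first stretch is the 250 bases upstream of the C3 start as RefSeq places it (GRCm38.p6, minus strand, chr17:57228137-57228386), and the second is the central 300 bases of the upstream region on the same strand (chr17:57230668-57230967). Capitals mark matches to 1 of 6 motifs searched on both strands: C/EBP (TTNNGCAA), a factor of the acute phase response, HNF4 (CAAAGTCCA) and HNF1 (GTTAATNAT), which drive hepatocyte genes, STAT (TTCNNNGAA), which carries interleukin signals, NF-kappa-B by its usual 10-letter consensus, and the TATA box (TATAAA). The C3 promoter has a C/EBP match on the opposite strand at bases -45 to -38 from the start. The upstream region has a STAT match at bases 104 to 112 of the printed stretch.
C3 promoter: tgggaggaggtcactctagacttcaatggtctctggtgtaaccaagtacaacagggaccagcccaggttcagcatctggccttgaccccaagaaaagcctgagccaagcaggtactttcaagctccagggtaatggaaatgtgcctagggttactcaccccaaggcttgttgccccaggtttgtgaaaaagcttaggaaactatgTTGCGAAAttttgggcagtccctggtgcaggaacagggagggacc
C3 upstream region: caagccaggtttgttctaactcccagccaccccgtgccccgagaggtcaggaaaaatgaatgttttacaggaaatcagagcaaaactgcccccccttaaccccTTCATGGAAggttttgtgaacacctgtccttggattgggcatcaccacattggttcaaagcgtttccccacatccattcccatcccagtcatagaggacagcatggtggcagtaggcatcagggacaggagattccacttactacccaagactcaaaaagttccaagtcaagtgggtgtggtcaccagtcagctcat

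RefSeq promoter sequences (250 bases before to 50 after the start) matched 6 of the 9 genes, Hc, C8a, C8b, C9, C3 and Mbl2. A C/EBP match was present in 2 of the 6 (C3 and C9) and in 10.8% of all 32851 promoters. HNF1 matched in 1 (Hc, bases -77 to -69), against 0.801% of all promoters, and STAT in 1 (C8a), against 8.3%. A TATA box matched in 2 (Hc and C3, in C3 at bases 15 to 20 past the start), against 13.6%, and HNF4 (0.475% of all promoters) and NF-kappa-B (8.46%) matched in 0. Among the central 300 bases of all regions, 14.6% held a C/EBP and 9.03% a STAT match. These are letter matches in short windows and no evidence of binding.

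Within the C3 gene and beyond its end the samples fell into a different order than at the promoter. Summed over the 9 regions there, the levels were 150.0, 113.0 and 326.0 CPM in young replicates 1 to 3 and 296.0, 126.0, 323.0 and 323.0 CPM in aged replicates 1 to 4. Young replicate 3 was at the level of 3 of the aged samples, and aged replicate 2 was at the level of the other young samples. In each of the 9 regions young replicate 3 and aged replicates 1, 3 and 4 were all above young replicates 1 and 2 and aged replicate 2. The log2 fold changes of these regions were 0.41 to 0.68, none passed the test (adjusted p 0.26 to 0.537), and age did not separate the samples in any of them. Leaving out 1 sample moved them to between 0.11 and 1.33, and without young replicate 3 the region 22294 bp from the start passed (1.11, adjusted p = 0.0483).

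The spread within the young group was the larger difference there. The highest young sample exceeded the lowest by 1.9 to 4.03 times in the 9 regions, with a median of 2.96. Of the 21012 regions in the series with a mean level at or above the lowest of these 9 (13.2 CPM), 3.02% had a ratio of at least 1.9 and the median was 1.25. In the 4 C3 regions at or upstream of the start the ratio was 1.08 to 1.46. The strongest C3 region by CPM was 4739 bp upstream, overlapping an exon and the 3′ UTR of the neighbouring gene Gpr108, with 59.5, 61.0 and 77.3 CPM in young and 91.1, 70.4, 80.8 and 92.9 CPM in aged samples. Aged replicate 2 lay below young replicate 3 in it, and the log2 fold change was 0.36 (SE 0.13, adjusted p = 0.115). It passed with GC offsets (0.43, adjusted p = 0.0493) and without young replicate 3 (0.49, 0.0494). With abundance offsets it was 0.067 (adjusted p = 0.844), and with total counts 0.235 (0.258).

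**Figure D4:**
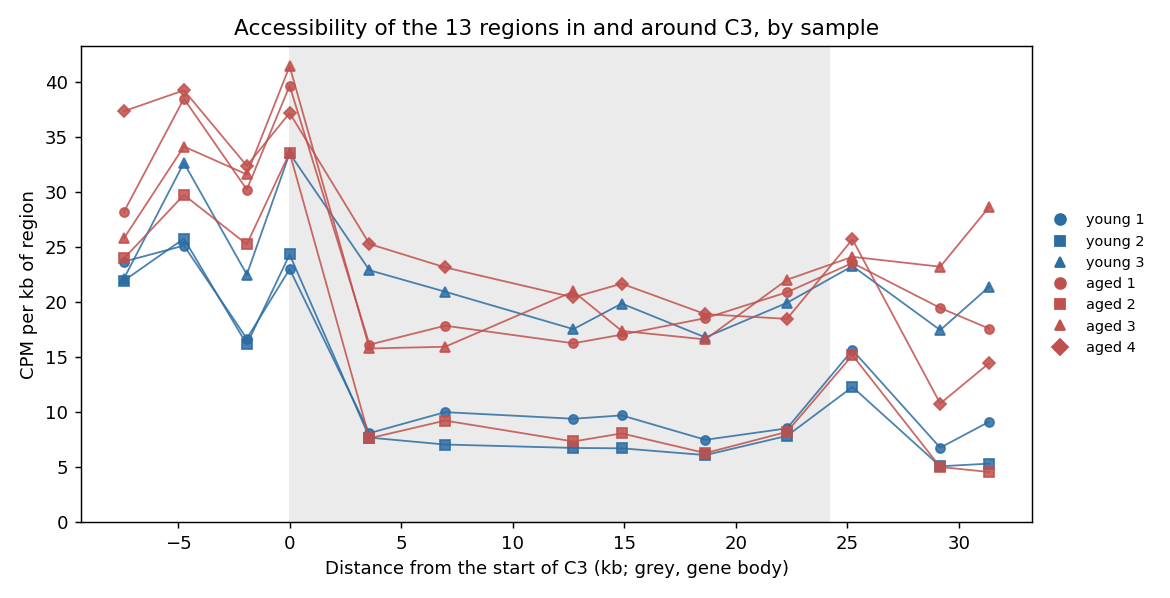
CPM per kb of region (y axis) of the 13 C3 regions in each sample against distance from the C3 start in kb (x axis); lines join the regions of a sample, blue young and red aged, and grey is the gene body. Upstream and at the start the red lines lie highest, except that aged replicate 2 is below young replicate 3 at 4739 bp upstream; inside and beyond the gene young replicate 3 runs with 3 aged samples and aged replicate 2 with the other young samples.

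Cfi encodes factor I, the plasma protease that cuts active C3 and C4 fragments and so limits the cascade. Its promoter (chr3:129835551-129838702) had 47.7, 46.7 and 61.5 CPM in young and 66.2, 64.9, 66.1 and 66.3 CPM in aged samples. The aged samples were nearly equal and all above the young ones, with a log2 fold change of 0.35 (SE 0.12) and an adjusted p of 0.0879. It passed the test with GC offsets (0.39, adjusted p = 0.0349), with limma voom (0.39, 0.0458) and without young replicate 3 (0.49, 0.0227). With abundance offsets it was 0.105 (adjusted p = 0.726), and with total counts 0.233 (0.236). The region 4190 bp upstream, at the start of Gar1 (a small nucleolar RNA protein gene), had 26.5, 26.3 and 24.2 CPM in young and 19.9, 17.7, 21.2 and 19.9 CPM in aged samples. The aged samples were all below the young ones, with a log2 fold change of -0.39 (SE 0.13, adjusted p = 0.0947). It passed with total counts (-0.51, adjusted p = 0.0392).

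Hc encodes C5, whose cut starts the terminal pathway. Its promoter (chr2:35059861-35062696) had 25.1, 16.6 and 37.3 CPM in young and 29.4, 29.2, 26.1 and 31.6 CPM in aged samples. All aged samples lay between the young ones, with a log2 fold change of 0.19 (SE 0.21, adjusted p = 0.627), which was -0.08 without young replicate 2. The other regions had log2 fold changes of -0.97 to 0.28, and 0 of 10 passed the test (adjusted p 0.19 to 0.627), although the region 83767 bp from the start did without aged replicate 4 (-1.13, adjusted p = 0.0424). Young replicate 3 was above the region's own mean over the 7 samples in 10 of 10 Hc regions, aged replicate 4 in 9 and young replicate 1 in 8. Young replicate 2 was so in 0, aged replicates 2 and 3 in 1 each and aged replicate 1 in 5, so here too the samples differed within each age.

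C8a and C8b encode chains of C8, which inserts the growing pore into the membrane. The genes are neighbours on chromosome 4. The C8a promoter (chr4:104873717-104876895) had 30.1, 23.1 and 38.0 CPM in young and 26.4, 26.1, 23.3 and 24.8 CPM in aged samples. It was the sole complement promoter with a negative value, -0.25 (SE 0.16, adjusted p = 0.361), and the aged samples lay within the young range. It was -0.058 without young replicate 3 and -0.43 without young replicate 2. The strongest C8a region was at the 3′ end of the gene, 56282 bp from the start, with 71.6, 59.5 and 90.9 CPM in young and 69.2, 73.4, 78.2 and 87.6 CPM in aged samples. The groups overlapped there (log2 fold change 0.07, SE 0.14, adjusted p = 0.806).

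The C8b promoter (chr4:104765903-104768575) had 34.2, 28.0 and 42.4 CPM in young and 56.1, 33.5, 33.6 and 38.4 CPM in aged samples. Aged replicate 1 stood above the rest and the others overlapped, with a log2 fold change of 0.25 (SE 0.19, adjusted p = 0.438). It was 0.034 without aged replicate 1, 0.10 without young replicate 2 and 0.42 without young replicate 3. In an intron of C8b, 12882 bp from the start, every aged sample was above every young one, at 21.3, 14.1, 14.7 and 16.5 CPM against 12.0, 11.1 and 10.9 CPM. The log2 fold change was 0.57 (SE 0.18) with an adjusted p of 0.0743, which was 0.0431 by DESeq2 and 0.0439 by limma voom.

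C9 encodes the protein that polymerises into the wall of the pore. Its promoter (chr15:6444426-6447487) had 44.6, 37.7 and 55.4 CPM in young and 48.8, 50.6, 51.4 and 51.4 CPM in aged samples. The aged samples were close to each other and inside the young range, with a log2 fold change of 0.15 (SE 0.13, adjusted p = 0.509) that was -0.06 under abundance offsets, 0.019 without young replicate 2 and 0.31 without young replicate 3. The other 5 C9 regions had negative values. In 2 of them the groups did not overlap: an exon of Dab2, an endocytic adaptor gene, 9245 bp upstream (-0.88, SE 0.31, adjusted p = 0.102), and the start of the small RNA gene Gm23218, 55424 bp from the C9 start (-0.92, SE 0.31, adjusted p = 0.0867). The latter passed the test without aged replicate 4 (-1.25, adjusted p = 0.0218), with the replicate block (-1.25, 0.03), with limma voom (0.0492) and when aged replicate 4 was summed with 1 or 2 (0.0463 and 0.0498).

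To ask whether a whole locus moved, the counts of all regions of a gene were added and tested across 16231 protein-coding genes, with CPM taken over counts summed for all genes. Of the 9 complement genes 0 were higher and 0 were lower by edgeR, and 0 reached an unadjusted p under 0.05. Over all genes 1.99% were higher, 4.03% were lower and 28.4% had an unadjusted p under 0.05. C3 had 226.0, 203.0 and 401.0 CPM in young and 384.0, 241.0, 397.0 and 407.0 CPM in aged samples. Young replicate 3 was among the aged samples, and the log2 fold change was 0.37 (SE 0.23, adjusted p = 0.313). It was 0.74 (adjusted p = 0.0605) when young replicate 3 was left out, 0.50 (0.164) when aged replicate 2 was and 0.19 (0.665) when young replicate 2 was.

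The next largest differences in size were in Hc (-0.27, adjusted p = 0.434) and C4b (-0.22, adjusted p = 0.336). That of Hc was -0.54 (adjusted p = 0.105) without young replicate 2 and -0.055 (0.901) without young replicate 3. The other genes lay between -0.15 and 0.14. Hc and C3 were also the genes whose samples differed most, with the highest sample 2.08 and 2.01 times the lowest, whereas for Cfi the ratio was 1.11. Cfb was the 1 gene whose groups did not overlap, with the aged samples lower, as in 12.9% of all genes (the aged samples were all higher in 12.4%). It had 141.0, 134.0 and 147.0 CPM in young and 134.0, 128.0, 132.0 and 120.0 CPM in aged samples. Young replicate 2 and aged replicate 1 were equal to 3 digits, and the log2 fold change was -0.13 (adjusted p = 0.283). With gene bodies only it was -0.031 (adjusted p = 0.832). Of the 4 regions in the Cfb sum, 2 had a higher and 2 a lower fitted level in aged liver. The mean of the region at the Nelfe start was 53.6 CPM in young and 39.4 CPM in aged samples, and that of the Cfb promoter 75.1 and 78.4 CPM.

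Among the 16209 protein-coding genes that share no region with the 9, those whose summed level followed each most closely over the 7 samples were found by the root mean square difference of log2 CPM after centring. For Cfi this was Slc35f6 (0.0165), for Cfb Ptpra (0.0278), for C8a Ptpn1 (0.049), for C9 Aox2 (0.0495), for C4b Rnf216 (0.0507) and for Mbl2 Slc16a12 (0.0519). For C8b, Gm13272 and Ifnz were equally close to 3 digits (0.0616). The pattern of Hc was nearest to that of Itih4 (0.149), an acute phase plasma protein gene, and that of C3 to Gadd45g (0.189), a stress response gene. The second nearest genes were not much further away: Akr7a5 for Cfb (0.0287), Cda for C3 (0.199) and Cxcl1 for Hc (0.169). The distances were longest for Hc and C3, whose samples differed most. Some gene is always nearest, and shared regulation was not tested.

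The list of 36 other complement genes held 23 with a promoter region, of which 0 rose and 0 fell by edgeR. By DESeq2 the count was also 0, and 4 of the 23 had an unadjusted p under 0.05, as did 35.0% of all protein-coding genes with a promoter region. The median log2 fold change was 0.13, with 17 above and 6 below 0, against 0.12 over all gene promoters. Under abundance offsets 8 of the 23 were above 0, against 43.4% of all protein-coding genes with a promoter region. The highest value was that of Mbl1, a mannose-binding lectin gene related to Mbl2, with 42.0, 43.2 and 81.7 CPM in young and 77.5, 63.3, 74.0 and 71.0 CPM in aged samples. Young replicate 3 was above all aged samples and the other young samples below them, with a log2 fold change of 0.39 (SE 0.19, adjusted p = 0.238). Under abundance offsets it was 0.12.

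By role, 9 of 10 inhibitor promoters had a positive value, with a median of 0.25, but under abundance offsets 4 of 10 did, with a median of -0.018. Of the 7 recognition genes with a promoter region 4 were positive, with a median of 0.03, and 0 passed the test. The convertase gene C2 had 0.02, and the terminal pathway genes C6 and C8g had 0.33 and 0.24, again with 0 calls. The region taken for C4a (0.24) lies at the start of a retained-intron transcript near the 3′ end of the gene, among the stretches near-identical to C4b, so it does not stand for the main start and its value is uncertain. Both receptor genes with a promoter region were negative, and Cr2, which encodes a receptor of B cells and follicular dendritic cells, had the lowest value of the list, at -0.53 (SE 0.35, adjusted p = 0.369) from 1.17 to 5.18 CPM. The 13 genes without a promoter region included C1qa, C1qb and C1qc, C3ar1, C5ar1 and Vsig4, which macrophages are known to express.

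**Figure D5:**
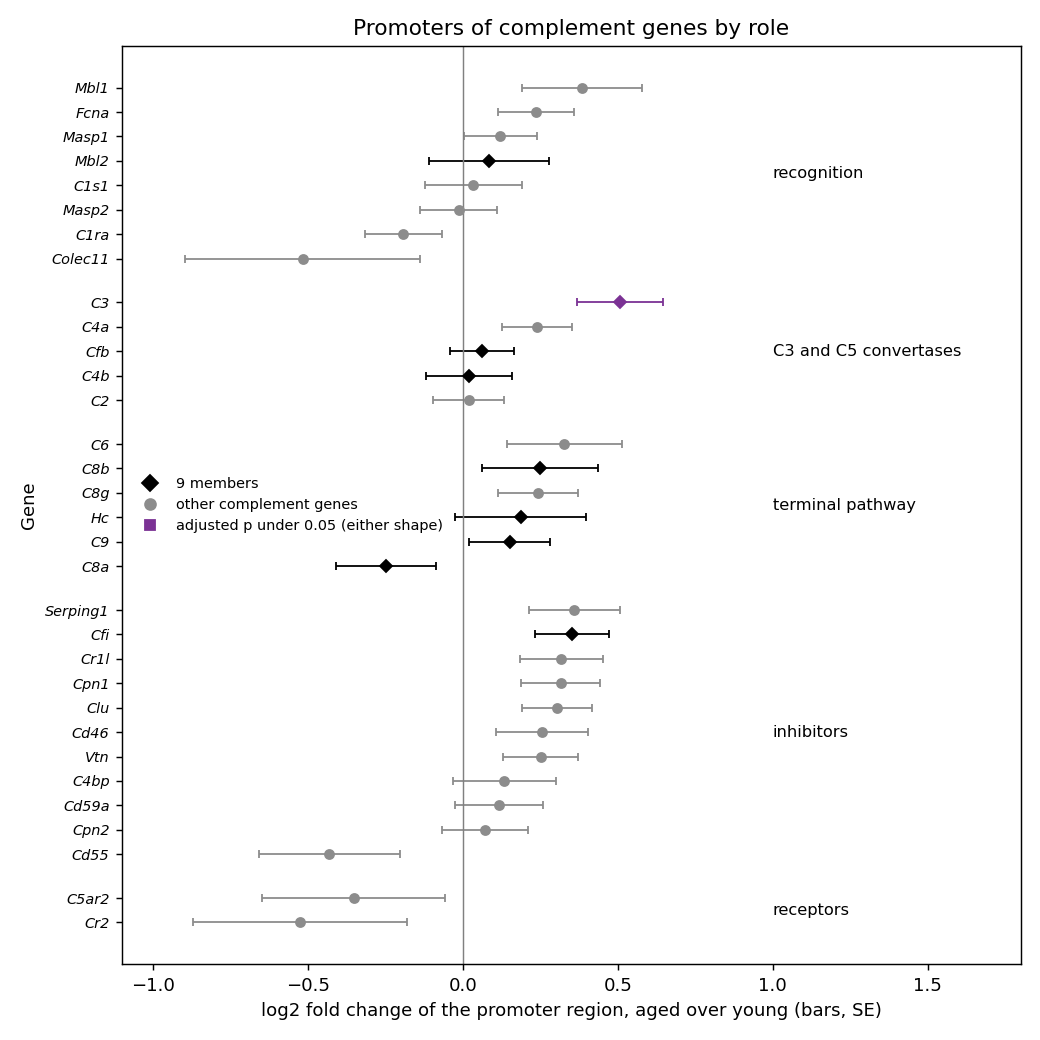
Log2 fold change (aged over young, x axis; bars, SE) of the promoter region of the 9 complement genes (black diamonds) and 23 other complement genes (grey circles), ordered within each role (y axis); purple marks an adjusted p under 0.05. C3, at 0.51, is the promoter past the threshold, and C8a is the 1 diamond below 0.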

How the data were processed

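ATAC-seq was analysed in 3 young and 4 aged liver samples (Omni-ATAC, EZ lysis of nuclei). The deposited values were raw counts per region: per the study's methods, the authors trimmed reads with cutadapt 1.13, aligned them to GRCm38 with Bowtie2 2.4.1 in local mode, kept proper pairs with mapping quality over 10, removed duplicates and mitochondrial reads, called peaks per sample with MACS2 2.2.7, kept peaks found in at least 2 samples and counted reads with featureCounts. A shift of read ends for Tn5 is not given in the sources used here. All 7 columns of samples were used.

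Here, regions were assigned to genes by overlap, and counts were tested with edgeR 4.0.16 (quasi-likelihood, TMM, age as the sole term, R 4.3.3) with Benjamini-Hochberg adjustment over all regions, and again over summed counts of protein-coding genes, at a threshold of 0.05. Log2 CPM used a prior count of 2. Samples of a group differed by more than sampling noise (chi-square per degree of freedom 2.4 to 6.07). Totals were 4474652 to 25461110 counts, and the median count per region was 35 in aged replicate 3, the shallowest sample, and 241 in young replicate 2. Weak regions thus held few counts in the shallow samples. Alternatives were DESeq2 1.42.0, limma voom 3.58.1, other scalings and filters, leaving out each sample, summing each pair of aged samples, and other gene windows. The test was tested on simulated data. With region- or gene-specific dispersions its share of false calls there was above the nominal threshold, and with trended dispersions it was below it for regions and just above it for genes, so calls close to the threshold are uncertain. The simulation with trended dispersions was added after the result of the other was seen. Copies of regions were sought with minimap2 2.31.

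The genes, gene lists and rules were chosen with earlier results of these data known. Named were all 9 genes, the promoter and strongest region of each, every region with an adjusted p under 0.05, other complement genes that passed or had the highest or lowest value, and, by role, further members of that list. Of the list, 1 gene is not reported here.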

Additional observations from a re-analysis of the deposited data

Results flagged for a closer look

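In the summed accessibility of C3, aged replicate 2 had a log2 CPM of 7.91, against 8.58 to 8.67 in the other 3 aged samples, and its gap to the nearest of them exceeded Dixon's 95% limit at a ratio of 0.887 of the group's range. It was 1 of 21 values tested in this way, and chance flags about 1 in 20. The same sample was the lowest aged sample at 5 of the 9 complement promoters, and at 46.0% of all gene promoters. Without it the log2 fold change of summed C3 accessibility was 0.50 (adjusted p = 0.164, edgeR), against 0.37 with it (0.313).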

How the results depend on the processing

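The median log2 fold change of the complement regions was 0.04, lay between -0.08 and 0.13 over 23 alternatives and was below 0 in 5 of them: abundance offsets (-0.069), total counts (-0.0795), the replicate block (-0.00045), and without young replicate 2 (-0.078) or aged replicate 3 (-0.015). In summed accessibility 0 genes passed the test under any of those run. The count of regions that rose (2) was 4 with GC offsets and with limma voom, 0 with abundance offsets and at an adjusted p under 0.01, and 1 with total counts, with gene bodies only, with at least 10 counts in every sample and when aged replicates 1 and 2, 1 and 3, 1 and 4, 2 and 3, or 3 and 4 were summed. Leaving out a sample gave 0 to 5. The count that fell (2) was 4 with total counts, 0 with gene bodies only, and 1 with at least 10 counts, at an adjusted p under 0.01, for regions nearest to a start of the 9 genes and when aged replicate 3 was summed with 1, 2 or 4. Leaving out a sample gave 0 to 5. The cause was not tested. Of the other complement promoters 0 rose, against 2 with GC offsets and 0 to 1 without a sample.

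Samples of the same number had correlations of deviations of -0.12, 0.06 and 0.03, within the range of pairs of different numbers (-0.151 to 0.232). With so few samples these values cannot decide whether the numbers mark pairs. With a replicate block, in which aged replicate 4 has no partner and adds nothing, 8 regions fell and 2 rose, and calls over all 55680 regions went from 3198 to 4078, of which 36.4% rose. The added ones were 2 of C4b, 3 of Hc and 1 of C9.

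Values that were not called crossed 0. With abundance offsets the promoters of Mbl2, C4b, Cfb and C9 were at -0.047, -0.19, -0.22 and -0.063. With total counts those of Mbl2, C4b and Cfb were at -0.033, -0.10 and -0.057. The C4b promoter was at -0.075 with the replicate block, at -0.0071 and -0.027 with aged replicates 1 and 4 or 3 and 4 summed, and at -0.02 with at least 10 counts. Summed accessibility of Mbl2 and Cfi was 0.041 and 0.019 with the replicate block, and with gene bodies only that of Cfi was 0.20 and that of C9 0.0018. Without a sample, the promoters ranged from -0.047 to 0.28 (Mbl2), -0.098 to 0.095 (C4b), -0.083 to 0.51 (Hc) and 0.026 to 0.096 (Cfb), and summed accessibility from -0.36 to -0.14 (C4b), -0.28 to -0.019 (C9), -0.21 to 0.017 (Mbl2), -0.043 to 0.046 (Cfi), -0.21 to 0.015 (C8a) and -0.020 to 0.25 (C8b). Of regions called, 1 could not be fitted with at least 10 counts, the repeat near Cfb. The GC offsets were run on regions and not on genes.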
